A study of Homo sapiens with 4 samples.

Results

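ATP-binding cassette (ABC) transporter genes were followed in the established human lung adenocarcinoma line A549 after expression of a mutant histone H2B. A gene belonged to the family when its 1 symbol in the platform annotation was ABC, then a letter from A to G, then digits. In all, 39 genes met this rule, each with 1 probe set, among 17687 genes with a single symbol and 21448 probe sets on the array. They fall into subfamilies A (12 genes), B (8), C (9), D (3), E (1), F (1) and G (5). Of 45 protein-coding genes in RefSeq whose symbols fit the rule, 6 were not analysed here.

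Total RNA was hybridised to 4 arrays. All 4 came from A549 sublines depleted of LDOC1 by a short hairpin RNA and grown in high-glucose DMEM with serum, antibiotics and puromycin at 5 µg/mL. In 2 of them (H2BK120R replicates 1 and 2, so named by their titles and descriptions, while another label of both reads shLDOC1-H2BK120 without the R) the depleted cells also expressed H2BK120R, an H2B that cannot be monoubiquitylated at its usual lysine, and in 2 (vector replicates 1 and 2) they carried the control vector. The design text states that depletion raised monoubiquitylated H2B and that the mutant lowered it, so the comparison asks which transcripts differ when the mark is lowered in depleted cells. The mark itself was not measured on the arrays, the labels do not say whether a subline was 1 clone or whether replicates were separate cultures, and p-values therefore cover only the spread between these arrays. Neither cells given an unmutated H2B nor cells that keep LDOC1 were analysed here, so mutation and overexpression of a histone cannot be told apart. Markers of epithelium, which fit the labelled line, were present in both groups, with 6 of 7 above the median probe set. Among them was KRT18 (mean value 15.14 with H2BK120R and 14.94 with vector), while EPCAM, at 5.45 and 5.71, was below the median. Means of these markers were higher with H2BK120R for 4 and lower for 3. An unadjusted p under 0.05 in limma was reached by 1 in each direction, beside 3.62% of all probe sets higher and 3.08% lower. CDH1 differed by 0.60 ± 0.15 (log2, limma SE, limma adjusted p = 0.650) and KRT7 by -0.32 ± 0.11 (0.722). Markers of alveolar type II cells lay mostly in the lower range, with 1 of 8 above the median, and the surfactant gene SFTPC was at 4.04 and 4.01. For markers of other cell types, 1 of 7 leukocyte, 1 of 7 fibroblast, 0 of 8 endothelial and 2 of 8 hepatocyte genes were above the median.

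ABC proteins use ATP bound between a pair of nucleotide-binding domains to move lipids, drugs, conjugates, peptides or ions across membranes, and the E and F members have no membrane part and act on ribosomes and translation instead. Subfamily A mainly exports lipids, B includes P-glycoprotein and mitochondrial members, C the multidrug resistance proteins and the sulphonylurea receptors, D the peroxisomal and cobalamin transporters, and G the breast cancer resistance protein and sterol exporters. In lung tumour lines the family is studied for drug efflux, and in normal alveolar cells for the loading of surfactant lipid. Puromycin, present in all these cultures, is a known substrate of P-glycoprotein.

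By limma with Benjamini-Hochberg adjustment, no ABC gene reached an adjusted p under 0.05, and neither did any of the 21448 probe sets (0%). The smallest adjusted p was 0.693 in the family and 0.492 over all probe sets. The RNA was taken in bulk, so fewer cells with a transcript and less of it per cell cannot be told apart. The differences between H2BK120R and vector ran from -0.67 for ABCB5 to 0.58 for ABCA7 on the log2 scale, with a median of 0.04 over the 39 genes against 0 over all probe sets. At an unadjusted p under 0.05 there were 2 ABC genes, ABCD3 and ABCA7, both higher with H2BK120R. That is 5.13% of the family, beside 6.7% of all probe sets in either direction and 3.62% in the higher direction. In the lower direction there were 0, beside 3.08% of all probe sets, and under a stricter 0.01 there were 0, beside 1.42%. Which genes passed 0.05 depended on the variance model and the arrays used. With a prior variance that did not follow mean level (limma without trend) there were again 2, beside 5.93% of all probe sets, but they were ABCA7 and, on the lower side, ABCA9 (unadjusted p = 0.0384, limma adjusted p = 0.822), while ABCD3 had an unadjusted p of 0.0671. With H2BK120R replicate 1 left out it was ABCD3 alone (1 gene, beside 3.47% of all probe sets), with H2BK120R replicate 2 left out ABCA8 alone, on the lower side (beside 2.31%), and with vector replicate 1 left out ABCA7 alone (beside 5.43%). With vector replicate 2 left out there were 4 (beside 11.3%), ABCC2 and ABCD3 on the higher side and ABCB10 and ABCC10 on the lower. Higher means with the mutant were found for 23 genes (59%, beside 49.9% of all probe sets) and lower means for 16 (41%, beside 49.4%). The family's median was -0.01 without H2BK120R replicate 2, 0.08 without vector replicate 1 and 0.01 without vector replicate 2.

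The windows before the annotated starts of 3 genes are shown because ABCD3 and ABCA7 had the smallest p-values of the family and ABCC2, which followed them, has a start region of another composition. Each sequence is the 250 bases before the start in RefSeq's table for GRCh38.p14, written 5′ to 3′ on the plus strand, which is the coding strand of all 3 genes, with every CG dinucleotide in capitals.
ABCD3, chr1:94418139-94418388: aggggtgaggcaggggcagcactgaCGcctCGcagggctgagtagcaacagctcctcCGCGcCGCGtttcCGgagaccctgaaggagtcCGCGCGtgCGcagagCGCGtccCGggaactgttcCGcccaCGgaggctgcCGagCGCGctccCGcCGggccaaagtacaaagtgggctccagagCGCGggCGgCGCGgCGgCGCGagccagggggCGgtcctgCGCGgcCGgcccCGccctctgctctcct
ABCA7, chr19:1039857-1040106: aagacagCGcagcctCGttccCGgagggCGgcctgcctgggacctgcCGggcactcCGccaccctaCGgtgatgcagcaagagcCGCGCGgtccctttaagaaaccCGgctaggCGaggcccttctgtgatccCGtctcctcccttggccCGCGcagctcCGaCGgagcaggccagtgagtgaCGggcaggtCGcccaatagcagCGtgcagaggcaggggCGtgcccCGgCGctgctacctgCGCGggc
ABCC2, chr10:99782390-99782639: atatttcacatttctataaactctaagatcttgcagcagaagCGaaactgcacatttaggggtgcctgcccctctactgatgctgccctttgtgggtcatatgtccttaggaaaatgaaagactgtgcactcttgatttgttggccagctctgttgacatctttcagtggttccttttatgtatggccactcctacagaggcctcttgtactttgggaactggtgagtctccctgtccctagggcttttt
CG occurred 34 times before ABCD3, 25 times before ABCA7 and 1 time before ABCC2. Among 49 windows listed for 32 of the 39 genes, 28 (57.1%) held at least 10 CG in these 250 bases, as did 52.2% of all 35114 windows in the table. ABCA4, ABCA8, ABCB4, ABCB5, ABCC3, ABCC8 and ABCG1 had no window in it. The antioxidant response core TGACNNNGC, searched on both strands of the whole 300-base window, was present for 11 of the 32 genes and in 11 of the 49 windows (22.4%), beside 13.3% of all windows. The 11 genes were ABCA2, ABCA3, ABCA5, ABCB6, ABCB9, ABCC4, ABCC10, ABCC11, ABCD4, ABCG2 and ABCG4. ABCD3, ABCA7 and ABCC2 did not hold it in these windows. Some genes had several windows and so more places for a match, and no share per gene was worked out over all genes. These letters are a description and do not show that a factor binds there.

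Peroxisomal and cobalamin transporters (subfamily D) were higher on average with H2BK120R in 3 of 3 genes, with a median difference of 0.45. ABCD3, which carries branched-chain fatty acids and bile acid intermediates into peroxisomes, was at 11.80 and 12.07 in the H2BK120R replicates and at 11.47 and 11.50 in the vector replicates. Both mutant arrays lay above both vector arrays, and replicate 2 with the mutant stood highest. The difference was 0.45 ± 0.15 (limma SE, n = 2 arrays per group), or 1.37-fold, with a 95% confidence interval from 0.12 to 0.78, an unadjusted p of 0.0118 and an adjusted p of 0.693. ABCD2, its paralogue for very long chain fatty acids, was at 3.18 and 3.61 with the mutant and 2.88 and 2.89 with the vector. These groups did not overlap either, but the values were below the 25th percentile of the probe sets (4.17), where a signal may not exceed background, and the difference of 0.51 ± 0.30 had an adjusted p of 0.769. ABCD4, which releases cobalamin from lysosomes, was at 7.22 and 7.71 with the mutant and 7.19 and 7.54 with the vector, so the groups overlapped, with a difference of 0.10 ± 0.27.

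Genes that work beside the D transporters did not share one direction. Of 15 measured genes for peroxisome assembly and very long chain fatty acid oxidation, 6 had higher and 9 lower means, with a median of -0.05. Lower means were found for 49.4% of all probe sets. None of the 15 reached an unadjusted p of 0.05, beside 6.7% of all probe sets. ACAA1, the peroxisomal thiolase, differed by -0.33 ± 0.15, while the peroxisome assembly factors PEX3 and PEX14 differed by 0.47 ± 0.26 and 0.33 ± 0.20. Among 11 cobalamin genes 5 had higher and 5 lower means, with a median of 0. MMUT, the mitochondrial enzyme that uses the cofactor, differed by 0.68 ± 0.33, the carrier TCN2 by 0.57 ± 0.32 and MMAA, which loads MMUT, by 0.42 ± 0.30.

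Lipid exporters of subfamily A were split, with 6 higher and 6 lower means and a median of 0.03. ABCA7, a phospholipid exporter, was at 7.84 and 7.87 in the H2BK120R replicates and at 7.46 and 7.09 in the vector replicates. The mutant arrays were nearly equal and above both vector arrays, which were further apart. The difference was 0.58 ± 0.24, or 1.49-fold, with a 95% confidence interval from 0.04 to 1.12, an unadjusted p of 0.0373 and a limma adjusted p of 0.745. ABCA3, which loads surfactant phospholipid into lamellar bodies of alveolar type II cells, was at 8.30 and 8.14 with the mutant and 7.87 and 7.79 with the vector. Again the groups did not overlap, and the difference of 0.39 ± 0.22 (1.31-fold) had an adjusted p of 0.767. The alveolar type II markers beside it were higher in 6 of 8 genes, beside 49.9% of all probe sets. Mean values over the list were 4.49 and 4.55 in the mutant arrays and 4.34 and 4.38 in the vector arrays. SFTPA1, SFTPB, SFTPC and NAPSA were below the lower quartile of the probe sets (4.17), where a signal may not exceed background. Only LAMP3, on the higher side, reached an unadjusted p under 0.05 (limma adjusted p = 0.745). Over all probe sets 3.62% did so in that direction and 6.7% in either. The part of these markers in the ABCA3 value was not tested.

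ABCA1, the exporter of cholesterol and phospholipid to apolipoprotein A-I, lay the other way, at 8.02 and 8.23 with the mutant and 8.38 and 8.46 with the vector. Both mutant arrays were below both vector arrays, and the difference of -0.30 ± 0.22 (0.815-fold) had an adjusted p of 0.817. ABCG1, which passes cholesterol on to lipoprotein particles and is often regulated together with ABCA1, was at 5.76 and 5.91 with the mutant and 5.35 and 5.60 with the vector. For this gene the mutant arrays were the higher ones, with a difference of 0.36 ± 0.29 and an adjusted p of 0.833. The opposite signs of this pair were not tested against each other. Acceptors and handling genes of exported sterol had 7 higher and 7 lower means among 15 measured. An unadjusted p under 0.05 was reached by 2, both lower, beside 3.08% of all probe sets in that direction and 6.7% in either. APOC1, an apolipoprotein, differed by -0.85 ± 0.25 (unadjusted p = 0.00663, limma adjusted p = 0.690), the lysosomal lipase LIPA by -0.48 ± 0.18 (0.0218 and 0.738) and the lysosomal cholesterol exporter NPC1 by -0.32 ± 0.18.

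The remaining A genes had wide intervals. ABCA9 was at 3.89 and 3.96 with the mutant and 4.36 and 4.50 with the vector, a difference of -0.51 ± 0.30 between groups that did not overlap. ABCA10 was at 2.32 and 2.21 against 2.65 and 2.57, a difference of -0.35 ± 0.26 in the same direction, and ABCA13, the largest protein of the family, at 3.42 and 3.09 against 2.88 in both vector arrays, a difference of 0.38 ± 0.29. These 3 groups of values lay in the lower range of the array, so they may be near background. ABCA8 was at 3.48 and 4.89 with the mutant and 4.74 and 4.76 with the vector. Its mean difference of -0.57 ± 0.42 came from 1 array and was 0.14 without H2BK120R replicate 1. The keratinocyte lipid transporter ABCA12 differed by 0.07 ± 0.35, the retinal transporter ABCA4 by 0.19 ± 0.31, the endolysosomal ABCA2 by 0.09 ± 0.28, ABCA6 by -0.23 ± 0.32 and ABCA5 by -0.02 ± 0.37, all with overlapping groups.

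**Figure D1:**
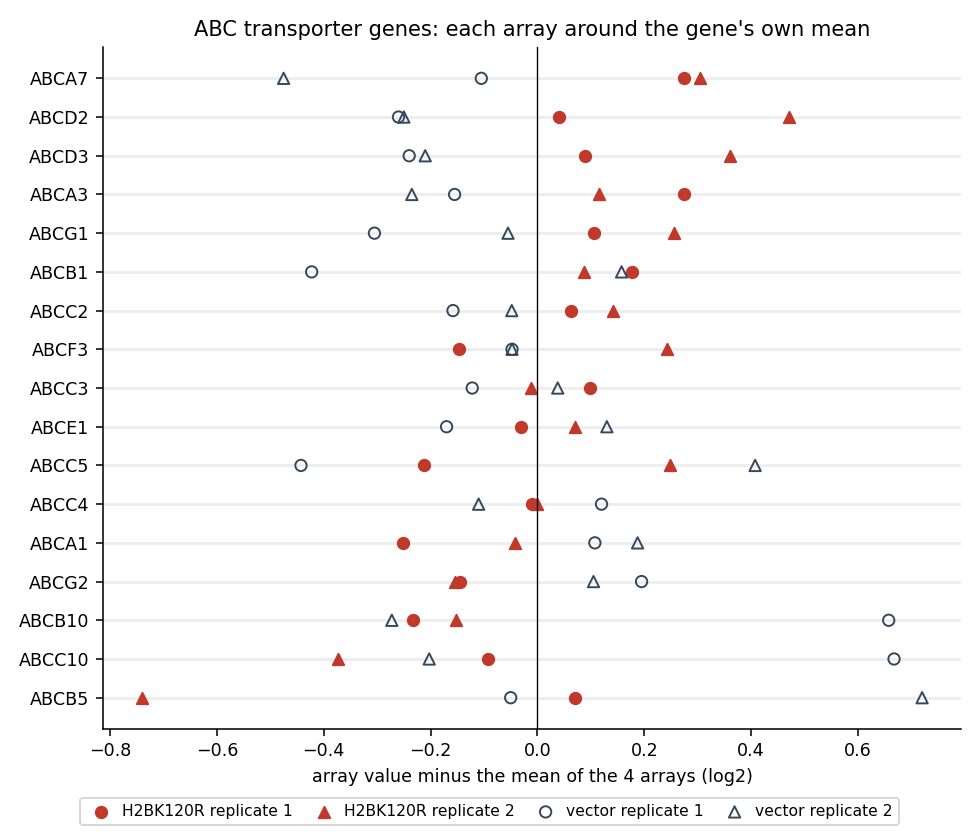
Values of the 17 ABC genes described in full, as log2 array value minus the gene's mean over the 4 arrays (x axis), 1 row per gene, ordered by difference. Filled red symbols are H2BK120R arrays and open dark symbols vector arrays, circles replicate 1 and triangles replicate 2. ABCA3, ABCA7, ABCC2, ABCD2, ABCD3 and ABCG1 have both red symbols to the right of both dark ones, and ABCG2 and ABCA1 to the left. For ABCB10 and ABCC10 vector replicate 1 stands apart on the right.

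Multidrug pumps, the members most often linked to drug resistance, showed no shared direction. ABCC1 (MRP1), also planned as one of these pumps, was not among the 39 genes, so no value is given for it. ABCC2 (MRP2), which exports glutathione, glucuronide and sulphate conjugates, was at 15.40 and 15.48 with the mutant and 15.18 and 15.29 with the vector. The groups did not overlap, and the difference of 0.21 ± 0.10 (1.15-fold) had an unadjusted p of 0.0699 and an adjusted p of 0.753. ABCC3 (MRP3), a basolateral exporter of glucuronides, was at 14.39 and 14.28 with the mutant and 14.17 and 14.33 with the vector. The groups overlapped, and the 95% confidence interval of its difference, 0.09 ± 0.11, ran from -0.17 to 0.34. ABCC4 (MRP4), which exports cyclic nucleotides and prostanoids, was at 11.99 and 12.00 with the mutant and between the vector values of 12.12 and 11.89. Its interval, from -0.32 to 0.30, was among the narrower ones of the family.

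ABCG2, the breast cancer resistance protein, was at 8.54 and 8.53 with the mutant and 8.88 and 8.79 with the vector. The mutant arrays agreed closely with each other and lay below both vector arrays. The difference was -0.30 ± 0.20 (0.812-fold), with a 95% confidence interval from -0.74 to 0.14 and a limma adjusted p of 0.794. ABCB1 (P-glycoprotein) was at 4.56 and 4.47 with the mutant and 3.96 and 4.54 with the vector. Only vector replicate 1 was low, and the difference of 0.27 ± 0.32 became -0.03 without it. ABCC5 (MRP5), an exporter of nucleotide analogues, was at 6.81 and 7.27 against 6.58 and 7.43, a difference of 0.04 ± 0.32 in which the replicates within each group were further apart than the groups. ABCC10 (MRP7), a pump for taxanes, was at 6.47 and 6.19 with the mutant and 7.23 and 6.36 with the vector. Vector replicate 1 was the high one, and without it the difference went from -0.47 ± 0.33 to -0.03.

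Partners of these pumps likewise showed no shared direction. Of 26 measured drug uptake transporters, 12 had higher and 14 lower means, with a median of -0.08. Over all probe sets 49.9% had higher and 49.4% lower means. Of the 26 transporters, 1 reached an unadjusted p under 0.05, beside 6.7% of all probe sets. It was SLC47A2, a proton-coupled organic cation exporter grouped with the uptake genes, at -0.75 ± 0.32 (limma adjusted p = 0.745). The nucleoside transporter SLC29A2 differed by 0.48 ± 0.23 and the organic anion transporter SLCO1B3 by 0.33 ± 0.16. Among 23 measured enzymes of glutathione, glucuronide or sulphate conjugation, or of glutathione or UDP-glucuronate metabolism, 10 had higher and 13 lower means. Their median was -0.07. Of these enzymes 1 reached that level, beside the same 6.7%. MGST2, a membrane glutathione transferase, differed by -0.56 ± 0.25 (limma adjusted p = 0.745), GSTA4 by -0.44 ± 0.23 and MGST1 by 0.19 ± 0.12. Of 16 measured nuclear receptors and other factors known to control transporter genes, 8 had higher and 8 lower means. An unadjusted p under 0.05 was reached by 1 in each direction, beside 3.62% of all probe sets higher and 3.08% lower. AHR, the aryl hydrocarbon receptor, differed by 0.31 ± 0.10 (limma adjusted p = 0.705), KEAP1, the adaptor that marks NRF2 for degradation, by -0.42 ± 0.17 (0.745) and the xenobiotic receptor NR1I3 by -0.67 ± 0.35. The NR1I3 groups overlapped, and its values were below the lower quartile of the probe sets, where a signal may not exceed background. NFE2L2, which encodes NRF2, differed by -0.02 ± 0.17. None of these partner genes passed the adjusted threshold in limma.

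**Figure D2:**
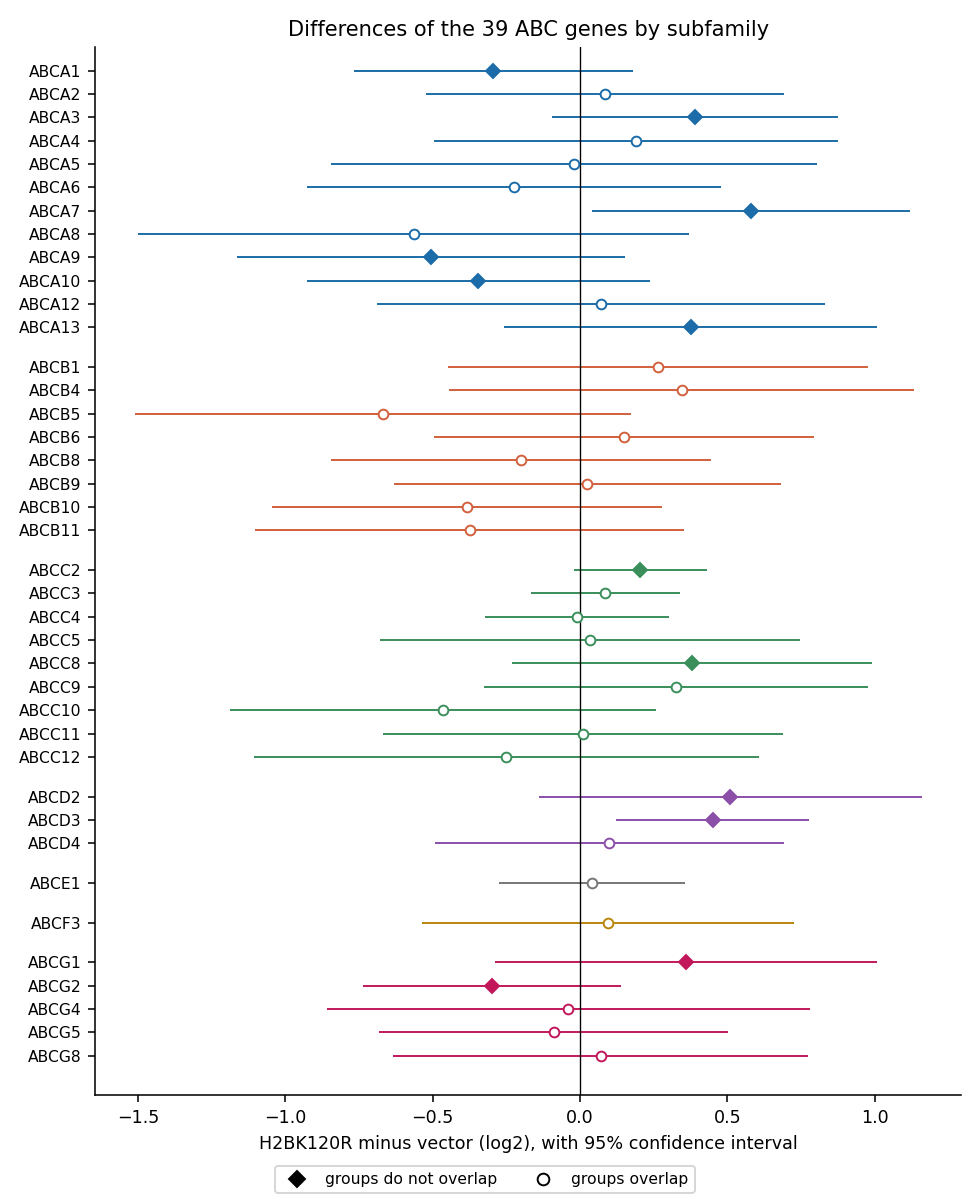
Difference between H2BK120R and vector (log2, x axis) for all 39 ABC genes by subfamily, with 95% confidence intervals from limma over 2 arrays per group. Filled diamonds mark the 12 genes whose groups do not overlap, open circles the others, and only the intervals of ABCD3 and ABCA7 leave out 0.

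Other B members, which include mitochondrial, lysosomal and bile transporters, had 4 higher and 4 lower means over the subfamily of 8, ABCB1 included, with a median of -0.09, and the groups overlapped for every one. ABCB5, a relative of P-glycoprotein known from melanoma, was at 4.41 and 3.60 with the mutant and 4.29 and 5.06 with the vector. It had the lowest difference of the family, -0.67 ± 0.38, yet mutant replicate 1 was above vector replicate 1 and the limma adjusted p was 0.767. ABCB10, a mitochondrial inner membrane protein needed for haem synthesis, was at 7.55 and 7.63 with the mutant and 8.44 and 7.51 with the vector. Its difference of -0.39 ± 0.30 was 0.08 without vector replicate 1. ABCB6, a porphyrin transporter, differed by 0.15 ± 0.29, the mitochondrial ABCB8 by -0.20 ± 0.29 and the lysosomal peptide transporter ABCB9 by 0.03 ± 0.30. ABCB4, which moves phosphatidylcholine into bile, differed by 0.35 ± 0.36 and ABCB11, the bile salt export pump, by -0.38 ± 0.33.

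Haem and iron-sulphur cluster genes, the setting of the mitochondrial B members, had 6 higher and 14 lower means among 20 measured. Lower means were found for 49.4% of all probe sets. The median of these 20 genes was -0.08, and none reached an unadjusted p of 0.05, beside 6.7% of all probe sets. UROS and UROD, successive enzymes of haem synthesis, differed by -0.32 ± 0.16 and -0.37 ± 0.27, and the haem transporter family member FLVCR2 by -0.41 ± 0.30. Of the ABC proteins whose symbols do not follow the rule, TAP1 and TAP2, which carry peptides for MHC class I, differed by 0.05 ± 0.33 and -0.03 ± 0.20. CFTR, the chloride channel of subfamily C, was at 3.28 and 4.56 with the mutant and 3.26 and 3.22 with the vector, a difference of 0.68 ± 0.40 that lay mostly in H2BK120R replicate 2. Its mean over the 4 arrays, 3.58, was below the 25th percentile of the probe sets (4.17), where a signal may not exceed background.

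The sulphonylurea receptors ABCC8 and ABCC9, regulatory subunits of ATP-sensitive potassium channels, were both below the 25th percentile of the probe sets. ABCC8 was at 2.85 and 2.92 with the mutant and 2.65 and 2.36 with the vector, without overlap and with a difference of 0.38 ± 0.28, and ABCC9 differed by 0.33 ± 0.30. Potassium channel pore genes listed with them lay the other way in 3 of 3 cases, beside 49.4% of all probe sets with a difference below 0. They were KCNJ11 at -0.61 ± 0.32, KCNJ8 at -0.51 ± 0.29 and KCNJ1 at -0.34 ± 0.29. All 3 were without overlap, beside 17.9% of all probe sets in that direction, and none had an unadjusted p under 0.05. None of the 3 was above the median probe set, and KCNJ1 was below the 25th percentile. The difference in sign between the receptors and these channel genes was not tested. ABCC11, whose variants set earwax type, differed by 0.01 ± 0.31 (-0.005 with equal array medians), and its neighbour ABCC12 by -0.25 ± 0.39.

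Members without membrane domains showed small differences. ABCE1, which splits ribosomes for recycling, was at 12.46 and 12.56 with the mutant and 12.32 and 12.62 with the vector, so the mutant values lay inside the vector range. Its difference of 0.04 ± 0.14, which was -0.016 after quantile normalization, had a 95% confidence interval from -0.28 to 0.36. ABCF3 was at 6.07 and 6.46 against 6.17 in both vector arrays, a difference of 0.10 ± 0.29. Among 14 measured genes that act with these proteins in ribosome rescue, recycling and the amino acid response, 11 had higher and 3 lower means. Over all probe sets 49.9% had higher and 49.4% lower means. The median of these 14 genes was 0.07. An unadjusted p under 0.05 was reached by 1, higher, beside 3.62% of all probe sets in that direction. IMPACT, an inhibitor of the kinase GCN2, differed by 0.53 ± 0.23 (unadjusted p = 0.0395, limma adjusted p = 0.745), NEMF, of ribosome quality control, by 0.52 ± 0.26 and the initiation factor subunit EIF3J by -0.32 ± 0.17. The remaining sterol transporters of subfamily G were dim. ABCG5 and ABCG8, which form 1 dimer for plant sterols, differed by -0.09 ± 0.27 and 0.07 ± 0.32, and ABCG4 by -0.04 ± 0.37 (0.015 after quantile normalization).

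**Figure D3:**
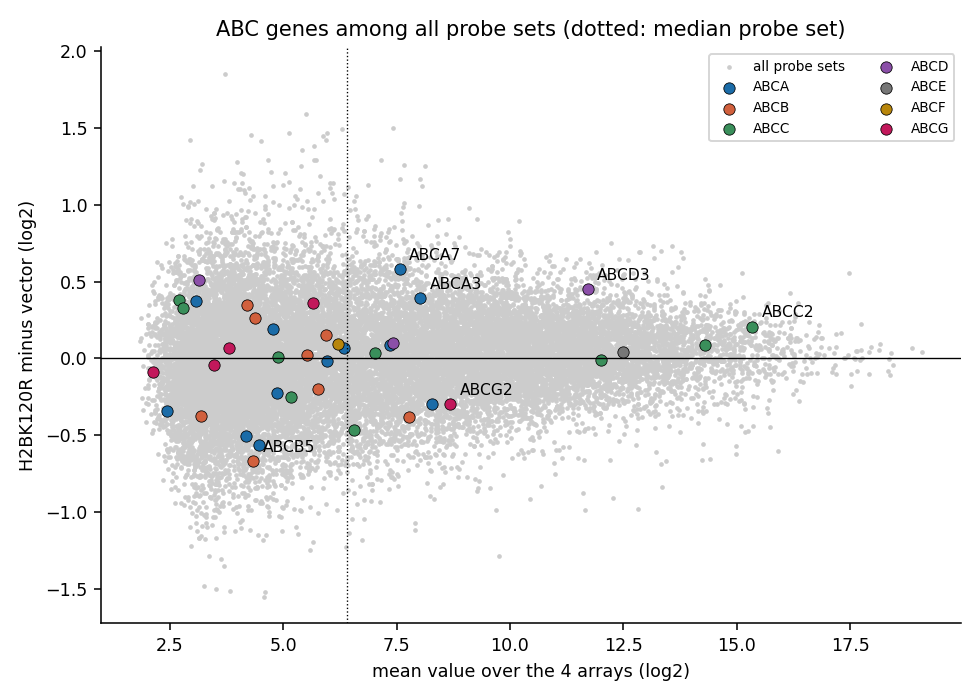
Mean log2 value over the 4 arrays (x axis) against the difference between H2BK120R and vector (log2, y axis), with all 21448 probe sets in grey and the 39 ABC genes coloured by subfamily. The dotted line is the median probe set at 6.41, and 25 of the 39 genes lie at or below it, where the spread of all probe sets is wider.

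Precision differed with signal. Of the 39 genes, 14 were above the median probe set of 6.41 and 30 above the lower quartile of 4.17. The median standard error was 0.22 for the 14 brighter genes and 0.31 for the other 25, and the median 95% confidence interval extended 0.48 and 0.68 to either side. The least uncertain was ABCC2, with a standard error of 0.10, and the most uncertain ABCA8, with 0.42. The groups did not overlap for 12 of the 39 genes (30.8%), beside 36.5% of all probe sets. The mutant arrays were the higher ones for 8 (20.5%, beside 18.6% of all probe sets) and the lower ones for 4 (10.3%, beside 17.9%). With 2 arrays against 2, an exact two-sided permutation test of 1 gene cannot give a p below 0.333. Over the 39 genes, array-to-array differences had a standard deviation of 0.42 within the mutant pair and 0.49 within the vector pair, and across groups the 4 pairs ranged from 0.41 to 0.49.

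**Figure D4:**
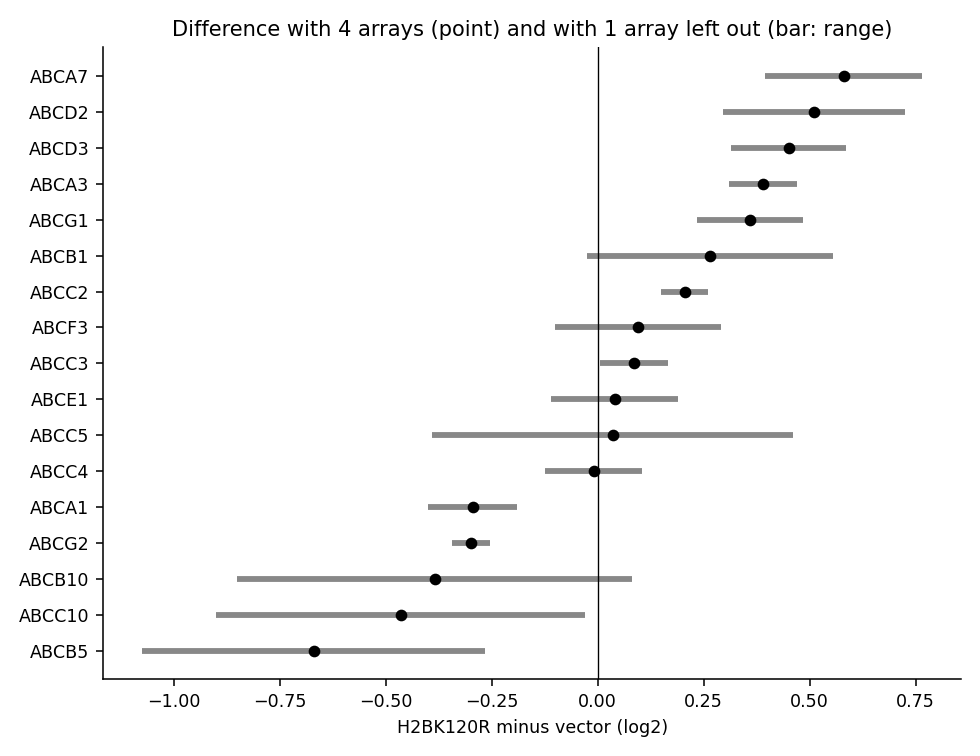
Difference between H2BK120R and vector (log2, x axis) for the 17 ABC genes described in full, with all 4 arrays (points) and as the range over the fits with 1 array left out (grey bars). The bars of ABCD3 (0.32 to 0.59) and ABCA7 (0.40 to 0.77) stay above 0 and that of ABCG2 (-0.35 to -0.26) below it, while those of ABCB1, ABCB10 and ABCC5 cross it.

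Leaving out each array in turn, 19 of the 39 genes kept the sign of their difference and 20 did not. All 12 genes without overlap kept it, which their definition fixes, and so did 7 of the 27 with overlap. Vector replicate 1, which had the lowest mean correlation with the other arrays (0.991), held the lowest value of the 4 for 13 genes and the highest for 10. Vector replicate 2 held the lowest for 12 and the highest for 8. The same counts were 7 and 8 for H2BK120R replicate 1, and 6 and 13 for H2BK120R replicate 2.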

How the data were processed

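RNA from 4 samples of A549 sublines was labelled as biotinylated single-stranded cDNA and hybridised to a whole-transcript Affymetrix array, per the labels' protocols, from cultures at over 90% confluency. The deposited values are log2 levels, which the authors normalized between arrays. Base 2 was inferred from values between 1.56 and 19.15, and normalization from array medians that ran from 6.40 to 6.43. The submitters' processing notes name MAS5. How background was corrected and probes summarised, and any detection calls, were not stated in these sources, so a low value may be background. If the base were not 2, differences would be rescaled and p-values would not.

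Probe sets were named through GEO's platform annotation: 17709 had 1 gene symbol, and all 39 member gene IDs carried the same symbol in RefSeq. All 21448 probe sets entered a two-sided limma test (version 3.58.1, R 4.3.3) by lmFit and eBayes, whose prior variance followed mean level, with Benjamini-Hochberg adjustment over the whole table and 2 residual and 8.95 prior degrees of freedom. The test was checked on simulated data, where every non-zero shift was larger than any difference of the family. That check does not cover differences of the size reported here. Standard errors and intervals are limma's. Alternatives were other normalization, filters, variance settings, a replicate block and leaving out each array. The members, lists and tests were chosen with earlier results of these data known. Values of all 4 arrays were given in full for the main drug pumps (ABCB1, ABCC2, ABCC3, ABCC4, ABCC5, ABCC10, ABCG2), for ABCA1, ABCG1 and ABCA3, for the 2 genes with the smallest p in each subfamily, and for genes at an unadjusted p under 0.05. Array values were added for ABCA8, ABCA9, ABCA10, ABCA13, ABCC8, ABCD4 and CFTR after their values were seen. From the partner lists the 3 genes with the smallest p were named, and NFE2L2 was added. Figures used Python 3.11.15 and matplotlib 3.10.9. The number of arrays limits the precision.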

Additional observations from a re-analysis of the deposited data

How the results depend on the processing

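In limma, 0 ABC genes and 0 probe sets reached an adjusted p under 0.05 with each of the 12 other normalizations, filters, variance settings, blocks and array subsets, where the lowest for an ABC gene was 0.425. The unadjusted threshold of 0.01 gave 0 ABC genes in place of 2. Among the brighter 50% of probe sets, 14 ABC genes remained to test, their median difference was 0.063 (beside 0.03 over all probe sets kept) and 6 had groups that did not overlap (beside 38.9%). With 1 array left out, between 1 and 4 genes had an unadjusted p under 0.05 (beside 2.31% to 11.3% of all probe sets), the median was between -0.01 and 0.08, and between 23 and 29 genes had no overlap (beside 62.7% to 73.4%), since a single array overlaps less often. These fits assume that the lone array has the spread of the opposite pair. With the replicate number as a block 3 genes reached an unadjusted p under 0.05, ABCD3, ABCA7 and ABCC2, beside 8.61% of all probe sets. The labels do not say that the numbers pair the samples, and the deviations of same-numbered arrays correlated at 0.14 over all probe sets and 0.25 over the 39 ABC genes. After quantile normalization the difference was -0.016 for ABCE1 and 0.015 for ABCG4, and with equal array medians -0.005 for ABCC11, each opposite in sign to the reported value. The cause was not tested. The median over all probe sets was -0.0013 after the former and -0.015 after the latter. No member had a second probe set, so the choice between probe sets could not be varied. With 1 array left out, the differences that changed sign ranged from -0.20 to 0.37 for ABCA2, -0.56 to 0.52 for ABCA5, -1.27 to 0.14 for ABCA8, -0.31 to 0.45 for ABCA12, -0.025 to 0.56 for ABCB1, -0.01 to 0.70 for ABCB4, -0.005 to 0.31 for ABCB6, -0.14 to 0.19 for ABCB9, -0.85 to 0.08 for ABCB10, -0.76 to 0.01 for ABCB11, -0.13 to 0.11 for ABCC4, -0.39 to 0.46 for ABCC5, -0.14 to 0.16 for ABCC11, -0.78 to 0.28 for ABCC12, -0.15 to 0.35 for ABCD4, -0.11 to 0.19 for ABCE1, -0.10 to 0.29 for ABCF3, -0.50 to 0.42 for ABCG4, -0.30 to 0.12 for ABCG5 and -0.17 to 0.31 for ABCG8.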

Other observations

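Several ABC genes are next to each other with no other protein-coding gene between them in RefSeq's gene order for GRCh38.p14, and the longest run is the group of 5 on chromosome 17, in the order ABCA8, ABCA9, ABCA6, ABCA10 and ABCA5. This run was singled out after its values were seen. All 5 had lower means with H2BK120R, with differences of -0.57, -0.51, -0.23, -0.35 and -0.02 in that order, beside 49.4% of all probe sets with a difference below 0. None reached an unadjusted p of 0.05 in limma, and the groups overlapped for ABCA8, ABCA6 and ABCA5. The 5 proteins are close relatives, and a probe set may read more than 1 of these genes. Each of the 5 was at or below the median probe set. In the other runs, ABCB1 and ABCB4 differed by 0.27 and 0.35, ABCC11 and ABCC12 by 0.01 and -0.25, and ABCG5 and ABCG8, whose start windows overlap, by -0.09 and 0.07, all with overlapping groups.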
